A study of Ovis aries with 9 samples.

Results

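The genes described here are 10 sheep genes whose proteins form or steer clathrin-coated pits: the dynamins DNM1, DNM2 and DNM3, the clathrin chains CLTC and CLTA, the AP2 adaptor subunits AP2M1, AP2A1 and AP2B1, and the beta-arrestins ARRB1 and ARRB2. Their rows were found by RefSeq symbol, with no value used, and the genes were proposed with earlier results of these data known. Together they covered 78 transcripts among the 76684 mRNA transcripts (RefSeq identifiers starting with NM or XM) of 21285 genes. For each gene, the expression of its mRNA transcripts was added up per library (the gene sum), and the stage pattern of the sum was set beside that of the single transcripts.

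RNA of the hypothalamus was sequenced from 9 Dolang ewes, with 3 animals per stage and 1 library per animal. Prepuberty animals were 120 or 121 days old, and puberty animals, sampled when first seen in estrus behavior, were 130 or 131 days old. Postpuberty animals were 150 or 151 days old. The labels name no treatment of the animals, and stage and age cannot be told apart. Expression was measured in FPKM, the fragments of a transcript relative to its length and to all mapped fragments of its library.

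Clathrin-mediated endocytosis brings membrane proteins into the cell in small coated vesicles. The AP2 adaptor, a complex of an alpha, a beta, a mu and a sigma subunit, binds cargo and lipid at the plasma membrane and recruits clathrin, whose heavy and light chains form the coat, and dynamin then cuts the vesicle from the membrane. In neurons this route recovers synaptic vesicle membrane, and beta-arrestins connect activated G protein-coupled receptors, the class to which many hypothalamic neuropeptide receptors belong, to AP2 and clathrin.

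The library of the second puberty animal (Puberty 2) stood apart from the other 8. It listed 47 of the 78 transcripts at 0, against 16 to 25 in the other libraries. It was the lowest library for 4 and the highest for 2 of the 9 member genes that passed the expression filter, while over all 14238 genes it was the lowest for 52.3% and the highest for 20.2%. Its FPKM summed to 599726 over all transcripts, against 359588 to 398109 in the other libraries. Scaled to equal totals, it was the lowest for 5 of the 9 member genes and the highest for 0. Its listed number of mapped reads was the lowest, at 19347227, and the highest was 23966519. Stage patterns are therefore given with and without Puberty 2, which leaves 2 puberty libraries. The tissue also varied between libraries. The summed FPKM of the 9 neuron markers measured was 685, 1713 and 1580 at prepuberty, 1604, 402 and 1301 at puberty, and 511, 1641 and 1910 at postpuberty. Oligodendrocyte markers summed to between 6448 and 14626. Astrocyte and microglia markers summed to between 2767 and 7141 and between 98.9 and 482. Puberty 2 had the highest sum of endothelial and mural markers, at 653 FPKM against 119 to 217 elsewhere. It also had the highest ependymal sum, at 362 against 32.3 to 126, and muscle and blood sum, at 11.9 against at most 6.97. Each sum rested mostly on 1 gene, CLDN5 (624), RARRES2 (315) and HBB (10.4). VWF and CCDC153 were also highest there, while PECAM1, CDH5, RGS5, PDGFRB and FLT1 were lowest there, at no more than 3.80. TEKT1, FOXJ1, ACTA1 and CKM were highest in other libraries. The part of cell composition in the values of Puberty 2 was not tested. Choroid plexus markers ranged from 13.2 to 7633, with the highest sum in Puberty 3, and pituitary markers from 0.246 to 204, with the highest sum in Postpuberty 1. Of 18 hypothalamic genes, 10 reached a mean FPKM of 0.5. SST, POMC and TRH were measured in every library, whereas GNRH1 was listed at 0 in all 9 and GHRH, NR5A1, SIM1, AGRP, NKX2-1 and KISS1 were at or near 0. In tissue of this kind, fewer cells of a type and less RNA per cell cannot be told apart.

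Averaged over the 9 libraries, the gene sums stood in the order CLTC (73.3 FPKM), CLTA (72.7), AP2B1 (42.1), DNM2 (39.5), ARRB1 (28.4), DNM1 (27.4), AP2M1 (25.9), ARRB2 (10.6) and DNM3 (10.1), with AP2A1 last at 0.0193. Neighbors in this order overlapped between libraries, except DNM3 and AP2A1. Over the 9 genes tested, the stages overlapped in each of the 3 comparisons, with all libraries and without Puberty 2, so that 0 gene sums kept 2 stages apart. Among all genes tested with all libraries, puberty lay wholly above prepuberty for 2.32% and wholly below it for 2.84%. Postpuberty lay above puberty for 5.25% and below it for 2.07%, and above prepuberty for 3.17% and below it for 1.4%. Without Puberty 2, these shares were 7.16% and 4.55%, 7.9% and 6.19%, and 3.16% and 1.37%. In any of the 3 comparisons, 13.8% of all gene sums had 2 stages apart, and 23.2% without Puberty 2, so a count of 0 among 9 members does not set them apart. The limma test on log2(FPKM + 1), with Benjamini-Hochberg adjustment over all 14238 genes and thresholds of an absolute log2 fold change of 1 and an adjusted p of 0.05, called 0 member genes in every comparison. It also called 0.0% of all genes. At an unadjusted p below 0.05 it held 1 member gene in puberty versus prepuberty, AP2M1, and 0 in the other comparisons, where all genes gave 1.82%, 2.14% (postpuberty versus puberty) and 0.815% (postpuberty versus prepuberty). The p of AP2M1, 0.04996, stayed below 0.05 in 1 of 18 alternative settings, which left out Puberty 3, and was 0.05 or more in the others, up to 0.19. Exact two-sided permutation tests of these 9 sums gave p between 0.3 and 0.9 over all libraries, and the design of 3 animals against 3 allows no p below 0.1. These p-values set stage differences against the spread between single animals.

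**Figure D1:**
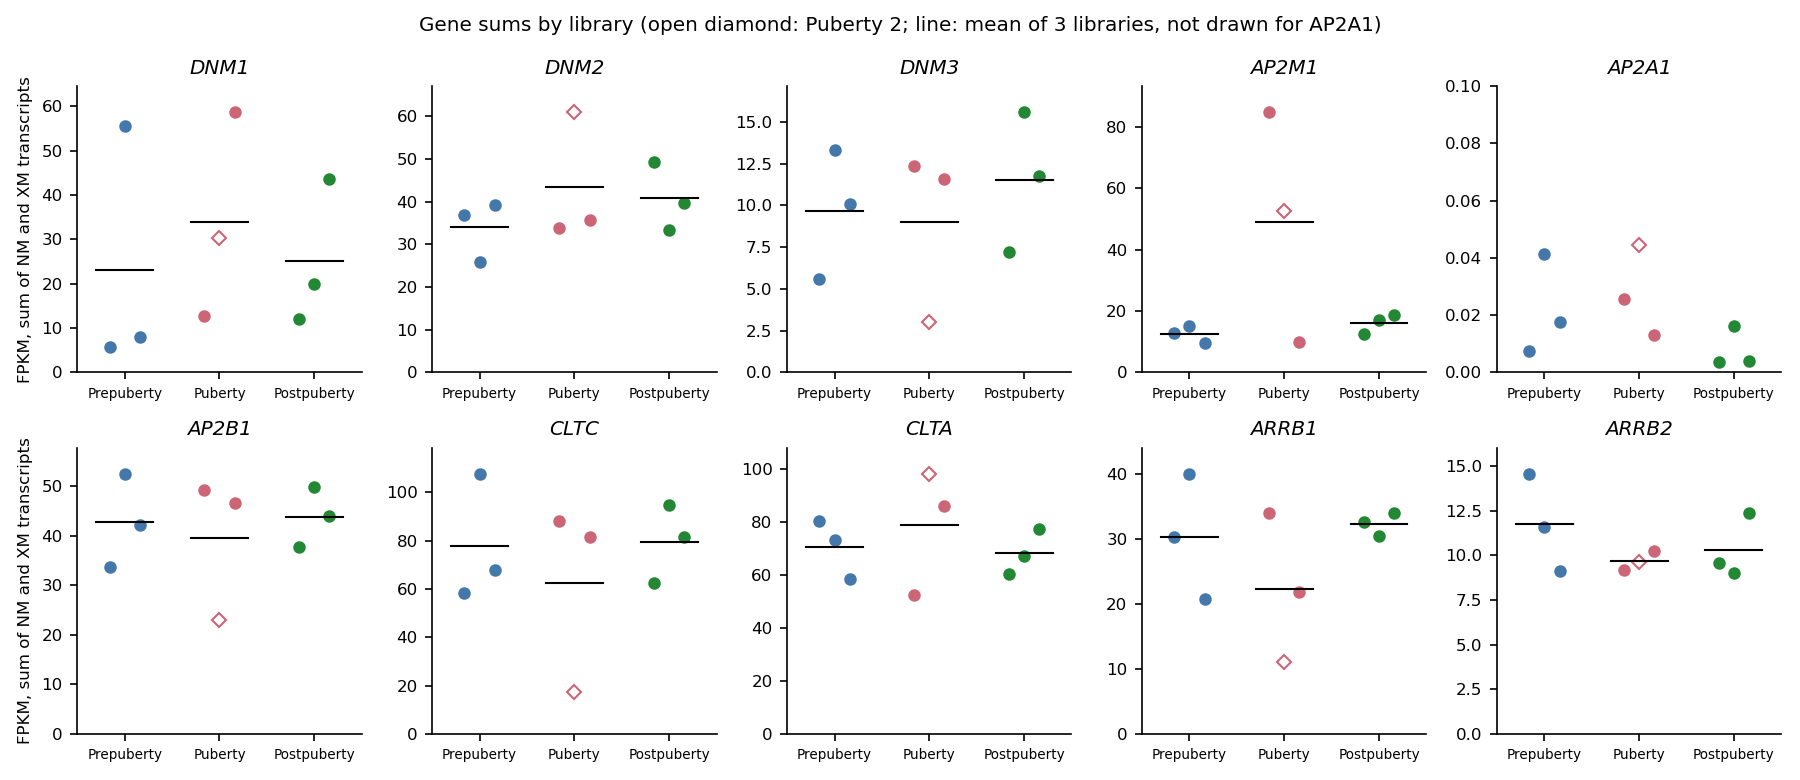
Gene sums in FPKM (vertical axes, linear from 0, a scale of its own for each gene) of the 10 genes by stage, 1 point per library, with Puberty 2 as an open diamond and the mean of the 3 libraries as a line. The stages overlap for all 9 genes above the expression filter, and AP2A1 stays at or below 0.0445 FPKM in every library.

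The dynamins are GTPases that constrict and cut the neck of the vesicle. DNM1, the neuron-enriched form used in synaptic vesicle recycling (chromosome 3, 8029526 to 8073094, ARS-UI_Ramb_v3.0), had sums of 5.67, 55.5 and 8.01 FPKM at prepuberty, 12.6, 30.2 and 58.7 at puberty, and 12.1, 19.9 and 43.6 at postpuberty. Each stage held 1 library at 43.6 FPKM or more, Prepuberty 2, Puberty 3 and Postpuberty 3, and at least 1 library at 12.6 or less. Without Puberty 2, the highest library had 10.3 times the FPKM of the lowest. The standard deviation of log2(FPKM + 1) within stages was 1.25, at the percentile 96.9 of all genes, and 1.37 without Puberty 2, at the percentile 98.8. Puberty differed from prepuberty by a log2 fold change of 0.97 (SE 0.85, limma adjusted p = 0.838), and by 0.92 (SE 1.04) without Puberty 2. This value depended on single libraries. It was 0.38 without Prepuberty 1, 0.46 without Puberty 3, 0.60 without Prepuberty 3, 1.52 without Puberty 1 and 1.92 (SE 0.68, limma p of 0.0222, adjusted p = 0.954) without Prepuberty 2. Postpuberty versus prepuberty, 0.61 with all libraries, ran from 0.03 without Prepuberty 1 to 1.57 without Prepuberty 2.

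The 11 mRNA transcripts of DNM1 ranged unequally. XM_027966392.3, with 21.5% of the gene's mean FPKM, had 12.7, 20.1 and 12.6 FPKM in Prepuberty 2, Puberty 3 and Postpuberty 3, 4.44 in Puberty 2, and between 0.524 and 0.715 in the other 5 libraries. XM_027966391.3, with 26.9%, was the leading transcript in 6 libraries and had 1.42, 8.94 and 2.58 FPKM at prepuberty, 6.98, 10.4 and 12.9 at puberty, and 3.25, 12.8 and 6.98 at postpuberty. The 3 libraries high in XM_027966392.3 thus came from 3 different stages. With all libraries, 0 of the 10 DNM1 transcripts that passed the filter had 2 stages apart, beside 18.1% of all transcripts tested. Without Puberty 2 it was 1, beside 29.2%. That was XM_027966389.3, a minor transcript named for this, which lay higher at postpuberty than at puberty, as did 8.42% of all transcripts. The gene also has 3 noncoding transcripts (XR identifiers), which summed to between 3.07 and 21.4 FPKM and were not part of the gene sum.

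DNM2, the dynamin of most cell types (chromosome 5, 13046865 to 13135225), had a sum with a smaller spread. Its log2 standard deviation within stages was 0.265 without Puberty 2, at the percentile 44.6, and 0.359 with it. The sum was highest in Puberty 2, at 61.0 FPKM, and lowest in Prepuberty 2, at 25.9, but with equal totals Puberty 2 had 38.9 and the highest was Postpuberty 1 with 51.9. Puberty differed from prepuberty by a log2 fold change of 0.31 (SE 0.30, limma adjusted p = 0.838), and by 0.05 (SE 0.23) without Puberty 2. Of the 14 DNM2 transcripts, 11 passed the filter and 3 of these had 2 stages apart in any comparison, as had 18.1% of all transcripts tested. Without Puberty 2 it was 3 of 10, beside 29.2%.

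The pair of leading DNM2 transcripts differed in stage pattern. XM_042249949.1, with 13.4% of the gene's mean FPKM, had 3.60, 2.77 and 5.77 FPKM at prepuberty, 7.12, 7.32 and 7.67 at puberty, and 3.96, 5.11 and 4.12 at postpuberty. All 3 puberty libraries lay above the other 6, a pattern held by 1.03% of all transcripts and by 1 of the 48 member transcripts tested. With equal totals, Puberty 2 fell below Prepuberty 3 and the pattern was lost. The log2 fold change of puberty versus prepuberty was 0.77 (SE 0.33), with a limma p of 0.0424 and an adjusted p of 0.810. It was 0.78 (SE 0.29, adjusted p = 1) without Puberty 2. With upper quartile scaling or equal totals, 0 of the 48 had a limma p below 0.05 in this comparison. XM_042249953.1, which led the gene in all 9 libraries with 41.7% of its mean FPKM, had 10.6, 13.5 and 10.5 FPKM at prepuberty, 9.77, 36.9 and 7.76 at puberty, and 27.5, 17.3 and 14.3 at postpuberty. Postpuberty lay above prepuberty, and the stages were puberty lowest and postpuberty highest with no overlap once Puberty 2 was left out, where 1.66% of all transcripts had postpuberty highest in this way and 2.22% had puberty lowest. With equal totals, Prepuberty 2 lay above Postpuberty 3, so postpuberty then overlapped prepuberty. Without Puberty 2, postpuberty versus puberty had a log2 fold change of 1.04 (SE 0.30), with a limma p of 0.00892 and an adjusted p of 1. The gene sum of DNM2 showed neither pattern.

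DNM3, a dynamin found mainly in brain and testis (chromosome 12, 38535397 to 39182416), had sums of 5.58, 13.3 and 10.1 FPKM at prepuberty, 12.4, 3.04 and 11.6 at puberty, and 7.19, 15.6 and 11.8 at postpuberty. The 3 lowest libraries, Puberty 2, Prepuberty 1 and Postpuberty 1, were each from another stage. Postpuberty differed from puberty by a log2 fold change of 0.45 (SE 0.52, limma adjusted p = 0.780) with all libraries and by -0.11 (SE 0.39) without Puberty 2. XM_027975613.3 (42.5% of the mean) and XM_027975615.3 (39.8%) had nearly equal FPKM in 8 libraries, from 1.86 to 6.78, while Puberty 2 had 2.38 of the first and 0 of the second.

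Clathrin gave the highest sums. CLTC, the heavy chain (chromosome 11, 10287195 to 10351219), had 58.2, 108 and 67.7 FPKM at prepuberty, 88.2, 17.5 and 81.5 at puberty, and 62.5, 94.5 and 81.5 at postpuberty. Puberty 2 was far below every other library, and the stage ranges of the other libraries overlapped. The log2 fold change of postpuberty versus puberty was 0.63 (SE 0.57, limma adjusted p = 0.780) with all libraries and -0.11 (SE 0.29) without Puberty 2. Leaving out this library lowered the log2 standard deviation within stages from 0.803 to 0.347.

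The CLTC transcripts kept a steady ratio. XM_027975337.2 held between 53.6% and 57.6% of the sum in 8 libraries and 76.6% in Puberty 2, and XM_060395124.1 held the rest. Neither had 2 stages apart, with all libraries or without Puberty 2, where 18.1% and 29.2% of all transcripts tested had.

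CLTA, light chain a (chromosome 2, 52332572 to 52367441), had sums of 80.3, 73.5 and 58.6 FPKM at prepuberty, 52.5, 98.5 and 86.1 at puberty, and 60.4, 67.2 and 77.5 at postpuberty. The lowest and the highest library were both from puberty. The sum varied little within stages, with a log2 standard deviation of 0.320, but its composition varied more. XM_027964420.2, with 35.2% of the mean, made up 15.7%, 60.8% and 39.0% of the sum at prepuberty, 43.4%, 20.2% and 34.9% at puberty, and 30.1%, 48.9% and 34.0% at postpuberty. XM_027964422.2, with 58.9% of the mean, led the gene in the 7 libraries other than Prepuberty 2 and Postpuberty 2. The stages overlapped in the shares of both, and the limma test of log2(FPKM + 1) of XM_027964420.2 minus that of the CLTA sum gave differences between stages between -0.10 and 0.23 (SE 0.52 each), with adjusted p of at least 0.913.

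CLTC, DNM3 and AP2B1, 3 of the 9 member genes tested, were lowest in the same libraries as the neuron markers, as were 7.11% of all genes. Puberty 2, Postpuberty 1 and Prepuberty 1 had the 3 lowest neuron marker sums, and they were also the 3 lowest libraries of the CLTC, DNM3 and AP2B1 sums and of the share of XM_027964420.2 in CLTA. The other 6 member genes did not follow this order, among them DNM1, with its lowest sums in Prepuberty 1, Prepuberty 3 and Postpuberty 1. These sums and this share were picked after their values were seen. Each stage held 1 of the 3 libraries low in summed neuron markers. SYT1 and MAP2, single markers of this sum, did not have Postpuberty 1 among their 3 lowest libraries, while the other markers had the same 3. The part of cell composition in these values was not tested.

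**Figure D2:**
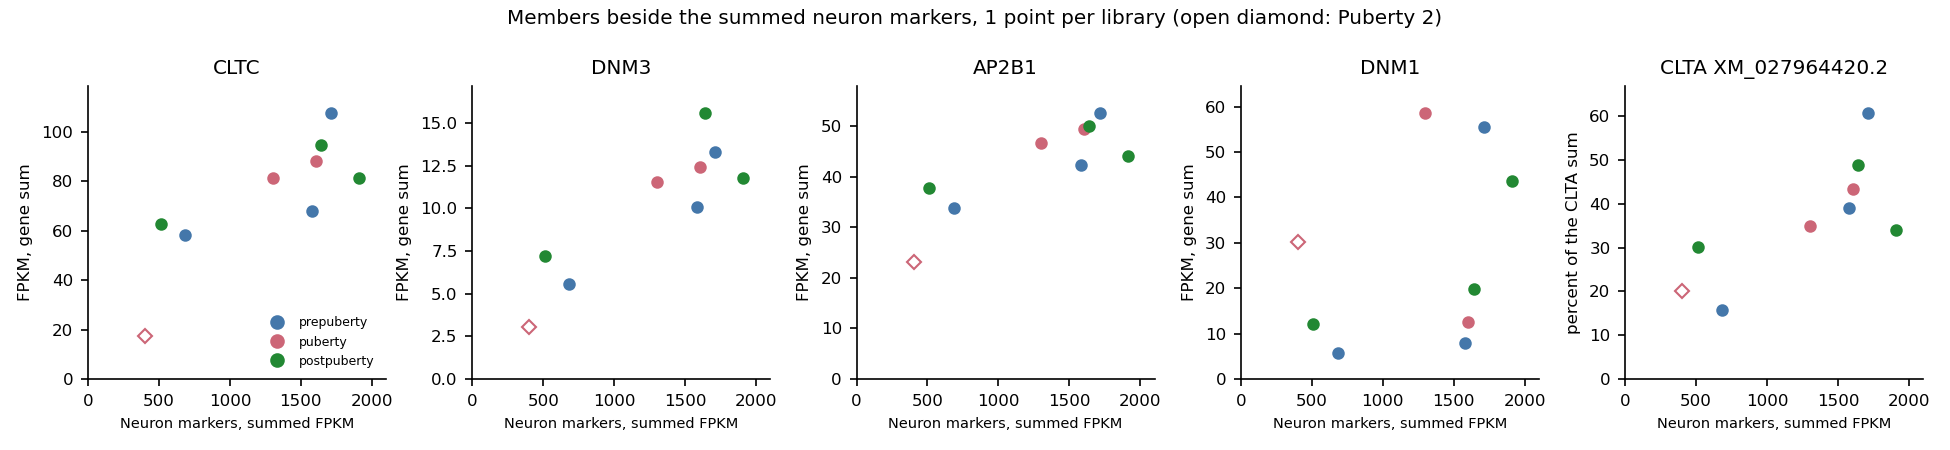
Gene sums of CLTC, DNM3, AP2B1 and DNM1 in FPKM, and the share of XM_027964420.2 in the CLTA sum in percent (vertical axes), against the summed FPKM of 9 neuron marker genes (horizontal axes), 1 point per library, colored by stage, with Puberty 2 as an open diamond. The 3 libraries at 685 or less on the horizontal axis are the lowest in every panel but that of DNM1.

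The AP2 subunits differed in level and in spread. AP2M1, the mu subunit that reads sorting signals of the cargo (chromosome 1, 203757967 to 203766929), had sums of 12.7, 15.3 and 9.49 FPKM at prepuberty, 84.9, 52.6 and 9.82 at puberty, and 12.5, 17.0 and 18.8 at postpuberty. Puberty 1 and Puberty 2 lay above all 7 other libraries, while Puberty 3 was the lowest but one. Means were 12.5 ± 2.90 FPKM at prepuberty, 49.1 ± 37.7 at puberty and 16.1 ± 3.25 at postpuberty (SD, n = 3 each). Puberty versus prepuberty had a log2 fold change of 1.47 (SE 0.65), with a limma p of 0.04996 and an adjusted p of 0.838. It was 0.86 (SE 0.60, adjusted p = 0.584) without Puberty 1, 1.20 (SE 0.75, adjusted p = 1) without Puberty 2 and 2.35 (SE 0.34, limma p of 0.000109, adjusted p = 0.338) without Puberty 3. This was the largest fold change of the member sums in this comparison with all libraries, but without Prepuberty 2 or Puberty 1 that of DNM1 was larger. Postpuberty versus puberty had a log2 fold change of -1.12 (SE 0.65, adjusted p = 0.780), and it was -0.51 without Puberty 1, -0.85 without Puberty 2 and -2.01 without Puberty 3.

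The high AP2M1 sums of Puberty 1 and Puberty 2 came from different transcripts. XM_004003098.5, with 52.0% of the mean, had 6.87, 7.42 and 6.06 FPKM at prepuberty, 83.2, 0 and 2.62 at puberty, and 4.80, 2.11 and 8.08 at postpuberty. XM_060419827.1, with 34.7%, had 3.09, 5.28 and 1.11 FPKM at prepuberty, 1.24, 51.5 and 4.24 at puberty, and 2.72, 8.09 and 3.69 at postpuberty. The first made up 98.0% of the sum in Puberty 1, and the second made up 97.9% in Puberty 2. Neither transcript was high in more than 1 library, and both had stages that overlapped.

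A pair of minor AP2M1 transcripts, singled out after their values were seen, was highest at postpuberty. XM_060419821.1 had 0.840, 0.406 and 0.507 FPKM at prepuberty, 0.0909, 0 and 0.408 at puberty, and 2.61, 3.66 and 3.61 at postpuberty. XM_060419817.1 had 1.91, 1.41 and 1.81 FPKM at prepuberty, 0.376, 1.12 and 1.71 at puberty, and 2.37, 3.10 and 3.44 at postpuberty. The 3 postpuberty libraries were above the other 6 for both. Their combined share of the gene sum was 39.8%, 39.8% and 37.5% at postpuberty, 21.7%, 11.9% and 24.4% at prepuberty, and 0.550%, 2.12% and 21.6% at puberty. For XM_060419821.1, postpuberty versus puberty had a log2 fold change of 1.89 (SE 0.29), a limma p of 7.28e-05 and an adjusted p of 0.600, the smallest adjusted p among the 48 member transcripts tested with all libraries. Without Puberty 2 it was 1.78 (SE 0.26, adjusted p = 0.326). Postpuberty versus prepuberty gave 1.44 (SE 0.29, adjusted p = 1), and 1.44 (SE 0.23, adjusted p = 0.584) without Puberty 2. The AP2M1 sum went the other way in postpuberty versus puberty, with a negative log2 fold change with all libraries and with each library left out. In postpuberty versus prepuberty it went the same way, at 0.35 (SE 0.65, adjusted p = 1), and from 0.18 to 0.51 with 1 library left out.

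AP2B1, the beta subunit that binds clathrin and beta-arrestins (chromosome 11, 14373915 to 14483426), had sums of 33.7, 52.6 and 42.3 FPKM at prepuberty, 49.3, 23.1 and 46.6 at puberty, and 37.8, 49.9 and 44.1 at postpuberty. The stages overlapped and Puberty 2 was the lowest. Without Puberty 2 its log2 standard deviation within stages, 0.235, was below the median of all genes, 0.291. The log2 fold change of postpuberty versus prepuberty was 0.05 (SE 0.33, limma adjusted p = 1).

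The leading AP2B1 transcripts did not follow the sum. XM_004012454.6, with 50.0% of the mean, had 27.3, 46.2 and 20.8 FPKM at prepuberty, 25.8, 0 and 20.5 at puberty, and 15.2, 18.8 and 15.1 at postpuberty. Postpuberty lay below all prepuberty libraries, and below all libraries of both other stages without Puberty 2, as for 1.03% of all transcripts. Its log2 fold change of postpuberty versus prepuberty was -0.83 (SE 1.04, limma adjusted p = 1) with all libraries, and without Puberty 2 it was -0.83 (SE 0.30), with a limma p of 0.0238 and an adjusted p of 1. XM_012185311.5, with 28.4%, had 4.03, 4.30 and 17.3 FPKM at prepuberty, 21.8, 0 and 19.1 at puberty, and 12.3, 15.8 and 13.1 at postpuberty. Without Puberty 2, both puberty libraries lay above the other 6, as they did for 3.11% of all transcripts, with a log2 fold change of 1.44 (SE 0.53), a limma p of 0.0265 and an adjusted p of 1 against prepuberty. In Puberty 2 a minor transcript named after its values were seen, XM_060394772.1, at no more than 0.0504 FPKM in the other libraries, had 23.0 FPKM and made up 99.6% of the sum, while the leading transcripts of the other libraries were listed at 0.

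Among the minor AP2B1 transcripts, XM_012185309.5 and XM_060394778.1, named after their values were seen, were highest at postpuberty. XM_012185309.5 had 1.08, 0.946 and 0 FPKM at prepuberty, 1.28, 0 and 2.89 at puberty, and 5.65, 4.06 and 5.80 at postpuberty. XM_060394778.1 had 0.538, 0.586 and 0 FPKM at prepuberty, 0.245, 0 and 2.42 at puberty, and 4.42, 3.19 and 4.73 at postpuberty. All postpuberty libraries were above the other 6, and together the pair made up 26.7%, 14.5% and 23.9% of the sum at postpuberty against at most 11.4% elsewhere. For XM_060394778.1, postpuberty versus prepuberty had a log2 fold change of 1.91 (SE 0.46) and a limma p of 0.00214, with an adjusted p of 1 and, without Puberty 2, of 0.984. For XM_012185309.5 it was 1.94 (SE 0.51) with a limma p of 0.00345, an adjusted p of 1 and, without Puberty 2, of 0.706. Of the 24 AP2B1 transcripts, 9 passed the filter, and the remaining 15 had low values or 0.

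AP2A1, an alpha subunit (chromosome 14, 55871408 to 55899005), was listed between 0.0038 and 0.0445 FPKM in the 9 libraries. Its transcript XM_060398768.1 gave all of this, and XM_060398769.1 was listed at 0 throughout. The gene did not pass the filter, and no fold change is given. The other alpha subunit gene, AP2A2, did not pass the filter either, while the sigma subunit gene AP2S1 had between 34.5 and 57.8 FPKM in 8 libraries and 168 in Puberty 2. A part of the library totals, from 12.4% to 17.4%, lay in transcripts assembled by StringTie without a RefSeq identifier, and these were not assigned to genes here. Because the AP2 complex needs an alpha subunit, the values near 0 cannot be read as low expression of the alpha subunit genes, and whether their reads lay in such transcripts was not tested.

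**Figure D3:**
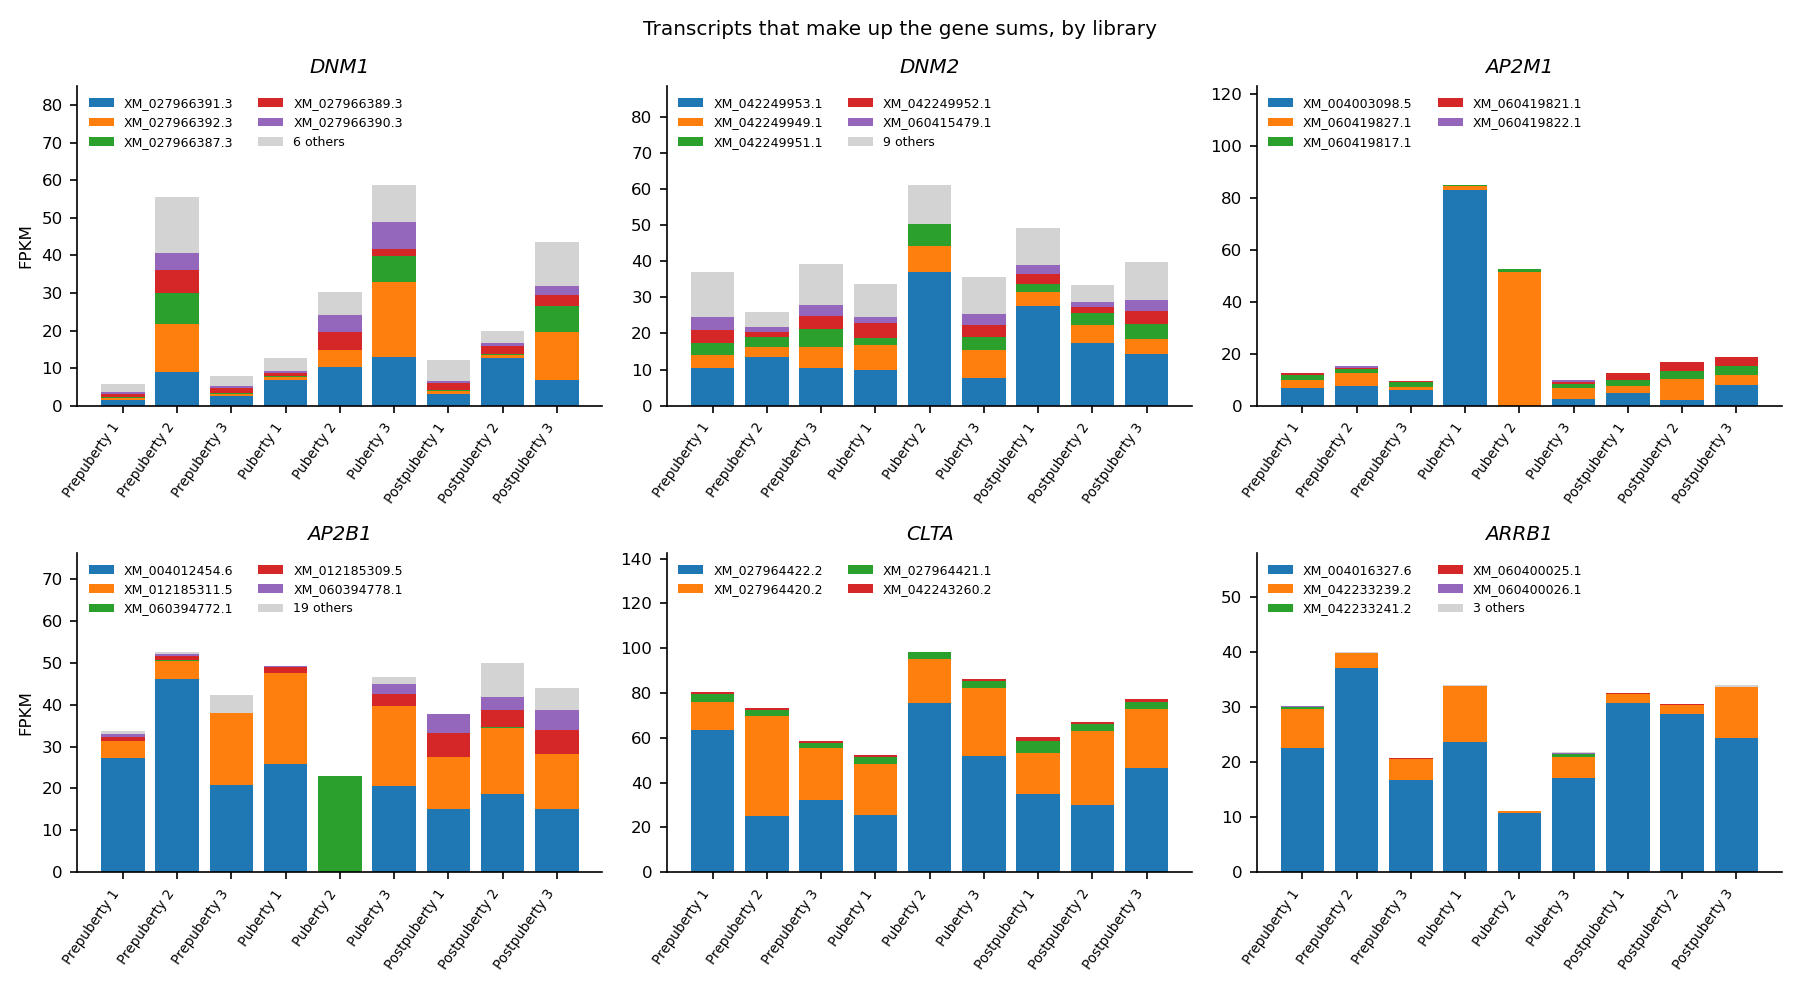
FPKM of the single mRNA transcripts of DNM1, DNM2, AP2M1, AP2B1, CLTA and ARRB1, stacked to the gene sum (vertical axes, linear from 0), in each of the 9 libraries (horizontal axes); up to 5 transcripts with the highest mean are colored and the rest are gray. The AP2M1 bar is led by XM_004003098.5 at 83.2 FPKM in Puberty 1 and by XM_060419827.1 at 51.5 in Puberty 2, and the AP2B1 bar of Puberty 2 is nearly all XM_060394772.1.

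The beta-arrestins bind phosphorylated receptors, end their coupling to G proteins and bring them to coated pits. ARRB1 (chromosome 15, 53201048 to 53278255) had sums of 30.3, 40.1 and 20.8 FPKM at prepuberty, 34.0, 11.1 and 21.8 at puberty, and 32.6, 30.5 and 34.0 at postpuberty. The postpuberty libraries lay close together, at 32.4 ± 1.75 FPKM (SD, n = 3), inside the range of prepuberty and overlapping puberty. Postpuberty versus puberty had a log2 fold change of 0.65 (SE 0.39, limma adjusted p = 0.780), and 0.24 (SE 0.29, adjusted p = 1) without Puberty 2. Without Puberty 1 it was 1.003 (SE 0.37), with a limma p of 0.0264 and an adjusted p of 0.544. Puberty versus prepuberty had -0.51 (SE 0.39, adjusted p = 0.838), -0.11 (SE 0.29, adjusted p = 1) without Puberty 2 and -0.87 (SE 0.37) without Puberty 1, with a limma p of 0.0468 and an adjusted p of 0.584.

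The leading ARRB1 transcript had postpuberty wholly above puberty, as had 5.61% of all transcripts. XM_004016327.6, with 83.0% of the mean, was at 24.4 FPKM or more at postpuberty and at 23.7 or less at puberty. The gap was small beside the spread within stages. XM_042233239.2, with 16.1%, had 7.19, 2.78 and 3.88 FPKM at prepuberty, 10.2, 0.368 and 3.86 at puberty, and 1.73, 1.78 and 9.32 at postpuberty, and its stages overlapped. It was at 9.32 FPKM or more in Puberty 1 and Postpuberty 3, the libraries where the leading transcript had its lowest shares of the sum, 69.6% and 71.8%. The remaining 6 transcripts were each at or below 0.372 FPKM in every library.

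ARRB2 (chromosome 11, 26515812 to 26524271) was the steadiest of the 9 genes with all libraries. Its sums were 14.6, 11.6 and 9.13 FPKM at prepuberty, 9.17, 9.62 and 10.2 at puberty, and 9.58, 9.04 and 12.4 at postpuberty. The stages overlapped, with a log2 standard deviation within stages of 0.224, at the percentile 11.9. Puberty versus prepuberty had a log2 fold change of -0.24 (SE 0.25, limma adjusted p = 0.838), and -0.23 (SE 0.22, adjusted p = 1) without Puberty 2. XM_027975067.3 gave 94.1% of the mean. The minor transcript XM_027975066.3, named after its values were seen, had 1.56, 0.585 and 0.933 FPKM at prepuberty, 0.332, 0.965 and 0.453 at puberty, and 0.298, 0.0684 and 0.398 at postpuberty. Postpuberty lay below prepuberty, as for 2.73% of all transcripts. The log2 fold change was -0.67 (SE 0.30), with a limma p of 0.0487 and an adjusted p of 1.

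**Figure D4:**
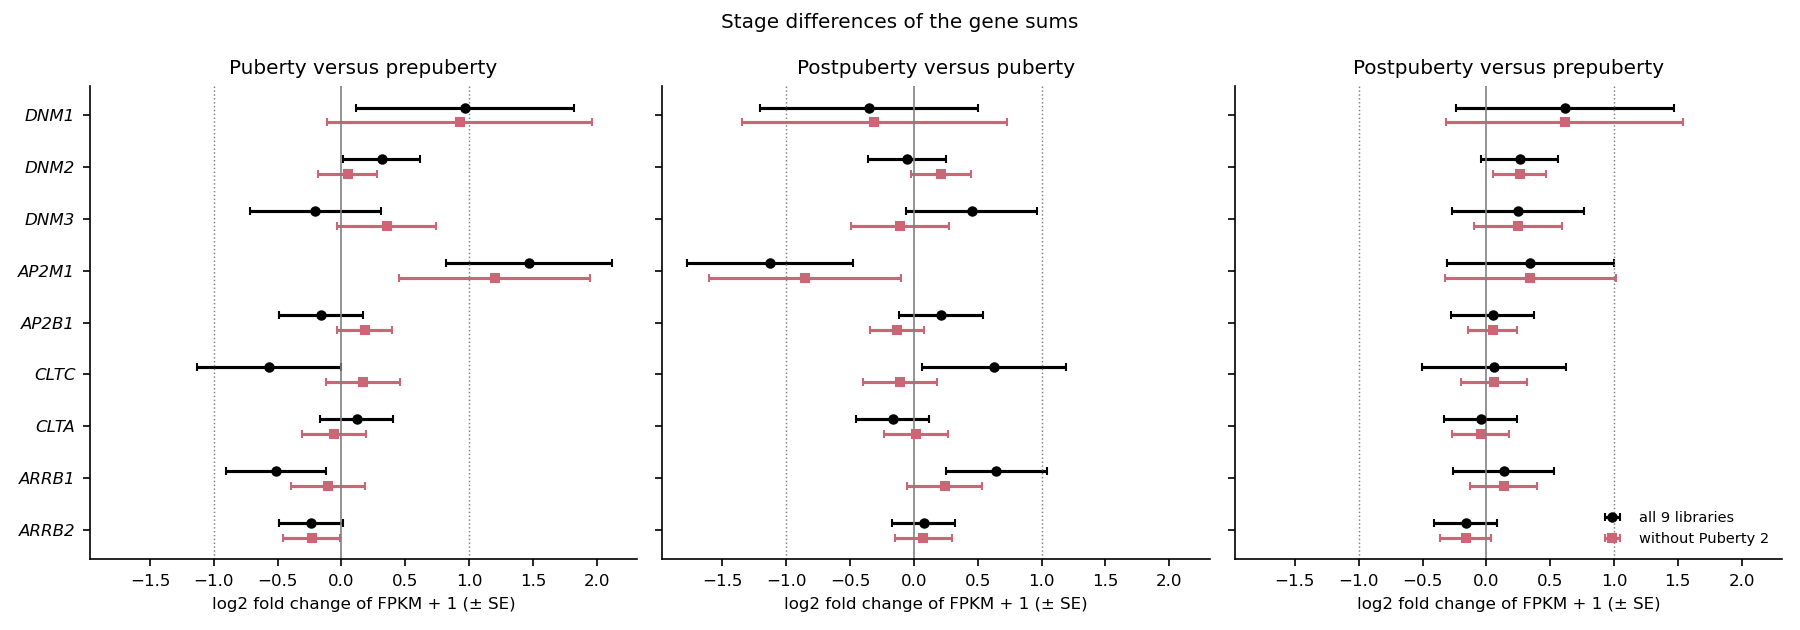
Log2 fold changes of FPKM + 1 (horizontal axes) of the 9 member gene sums tested (vertical axis) in the 3 comparisons, as estimates with SE, from all 9 libraries (black circles) and without Puberty 2 (red squares); dotted lines mark an absolute log2 fold change of 1. In puberty versus prepuberty AP2M1 lies at 1.47 and 1.20, and CLTC goes from -0.57 to 0.17 when Puberty 2 is left out.

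Single member transcripts were then counted against all transcripts. Of the 48 member transcripts that passed the filter, 14 transcripts of 7 genes had 2 stages apart in at least 1 comparison, beside 18.1% of all transcripts tested. Without Puberty 2 it was 15 of 46, of 8 genes, beside 29.2% of all transcripts. Genes with at least 1 such mRNA transcript made up 27.8% of all genes with a transcript tested, and 40.7% without Puberty 2, and genes with more transcripts have more chances to be among them. Transcripts of 1 gene share reads, so these are not independent. In puberty versus prepuberty, 1 member transcript lay wholly higher and 1 wholly lower, and over all 47002 transcripts tested the shares were 3.41% and 4.31%. In postpuberty versus puberty, 8 lay higher and 2 lower, beside 5.61% and 2.94%. In postpuberty versus prepuberty, 8 lay higher and 2 lower, beside 4.36% and 2.73%. Without Puberty 2, the members were 3 and 3, beside 9.4% and 6.49%, in the first comparison, 10 and 3, beside 8.42% and 8.23%, in the second, and 8 and 2, beside 4.37% and 2.75%, in the third.

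The limma test called 0 member transcripts in each comparison, where it called 0.00213% (puberty versus prepuberty), 0.0% (postpuberty versus puberty) and 0.00213% (postpuberty versus prepuberty) of all 47002 transcripts tested. At an unadjusted p below 0.05 it held 1, 7 and 5 of the 48 in these comparisons, beside 3.21%, 3.46% and 1.87% of all transcripts. In the limma test of each transcript's log2(FPKM + 1) minus that of its gene sum, 0 member transcripts were called, beside 0.0% of 20285. At an unadjusted p below 0.05 it held 3, 4 and 2, beside 3.76%, 3.91% and 2.03%. For transcripts near 0 this difference follows the gene sum with the opposite sign, so these are not counts of changed shares. XM_042245646.2 of DNM1, named for this, was at 0 in all 6 prepuberty and puberty libraries and had a difference of -0.97 in puberty versus prepuberty, while the DNM1 sum had 0.97.

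Postpuberty was above every other library for 7 of the 48 transcripts, which belonged to AP2B1 (2), AP2M1 (2), DNM3 (2) and CLTA (1), and over all transcripts this held for 1.16%. Without Puberty 2 it held for 8 of 46, beside 1.66%, with XM_042249953.1 of DNM2 as the addition, which overlapped prepuberty with equal totals. With upper quartile scaling between all libraries it held for 6 of the 48, beside 1.02%, since XM_027964421.1 of CLTA then overlapped. With equal totals it held for the same 7 of the 48 as without scaling, XM_027964421.1 included. The share of all transcripts was then above the unscaled 1.16%. XM_027964421.1 had 5.56, 3.41 and 3.28 FPKM at postpuberty and at most 3.21 elsewhere. XM_027975616.3 and XM_060396476.1 of DNM3 had between 0.929 and 1.07 FPKM at postpuberty and between 0.366 and 0.853 at prepuberty and the puberty libraries other than Puberty 2, where they were at 0 and 0.0203. All 7 were minor transcripts, each with less than 10% of the mean FPKM of its gene, and they are named because of these values.

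**Figure D5:**
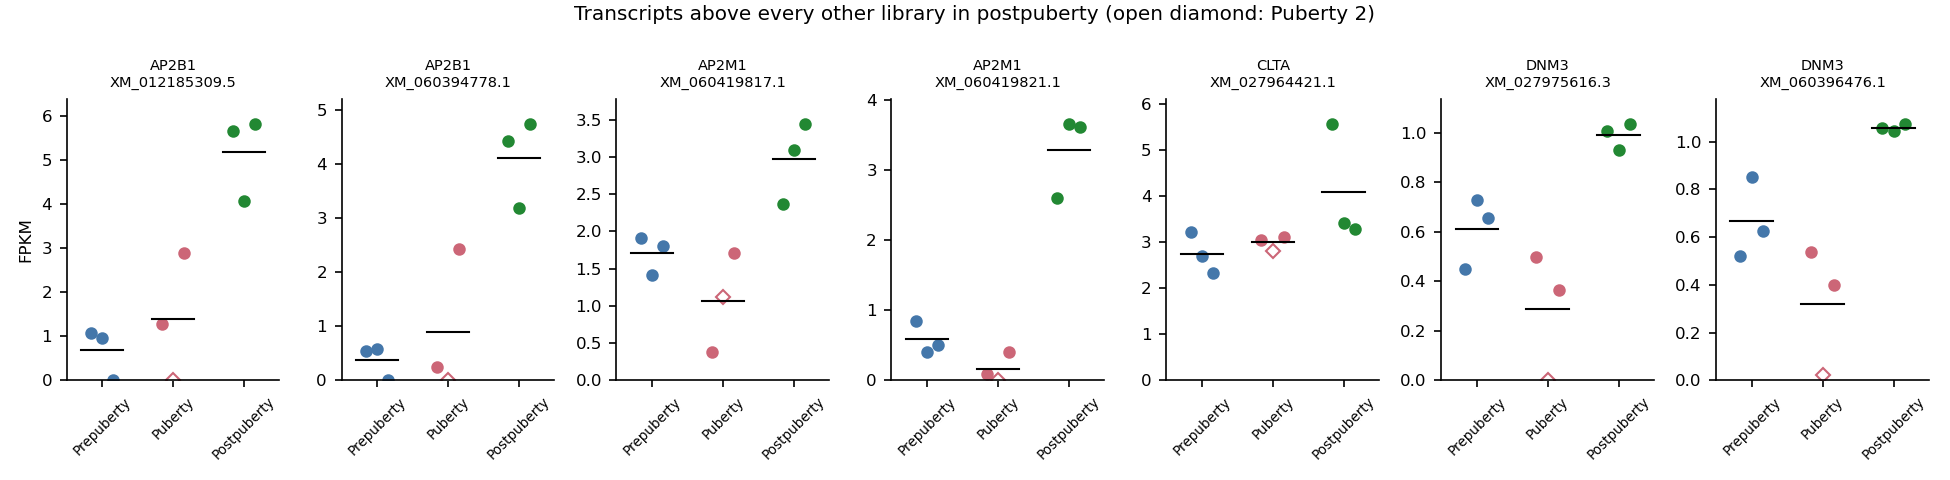
FPKM (vertical axes, linear from 0, a scale of its own for each transcript) of the 7 transcripts for which every postpuberty library lies above the other 6, by stage, 1 point per library, with Puberty 2 as an open diamond and the mean of the 3 libraries as a line. The gap is widest for XM_060419821.1 of AP2M1, from 0.840 to 2.61 FPKM, and narrow for XM_027964421.1 of CLTA, from 3.21 to 3.28.

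Sums and transcripts also differed in spread. Without Puberty 2, the median log2 standard deviation within stages of the transcripts that passed the filter was above that of their gene sum for AP2B1 (0.589 against 0.235), ARRB1 (0.632 against 0.354), DNM2 (0.400 against 0.265), CLTA (0.405 against 0.288) and ARRB2 (0.248 against 0.245). It was below that of the sum for DNM1, AP2M1, DNM3 and CLTC. Among all genes with 2 or more such transcripts it was above for 4340 of 6212. With all libraries CLTC was also above (0.844 against 0.803), and all genes gave 3641 of 6395.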

How the data were processed

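Hypothalamus RNA of 9 sheep was analysed, and stage and replicate number were taken from the sample labels. The authors trimmed reads with Trimmomatic (version 0.32 in the submitters' processing notes), aligned them with HISAT2 to ARS-UI_Ramb_v3.0 and assembled and quantified transcripts with StringTie. The deposited values are FPKM per transcript, while the table's description speaks of counts, so the count test that the authors used on their own counts was not possible, and a log-scale test was used. Read counts were not used here. Depth behind the FPKM values was between 19347227 and 23966519 mapped reads per library, and precision was set by the 3 animals per stage.

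RefSeq symbols and gene positions matched 89672 of 89674 RefSeq rows. The 10 genes and all lists were chosen with earlier results of these data known. FPKM of NM and XM transcripts were summed per gene. limma 3.58.1 (R 4.3.3) was fitted to log2(FPKM + 1) of all 9 libraries at once, with a variance trend, keeping the 14238 genes or 47002 transcripts with a stage mean of 0.5 FPKM or more in any stage, with Benjamini-Hochberg adjustment over all of them. Fold changes on this scale understate changes of low transcripts. An FPKM of 0 can be a failed estimate. Another test used the log2 value of a transcript minus that of its gene sum, which follows the share of a transcript only where its FPKM is well above the added 1. The fit was tested on simulated data, but no result of that test is given or used here. Transcripts with at least 10% of a gene's mean FPKM are named, with their values, a range or a share of the gene. Any others named were chosen after their values were seen. Of the other endocytosis genes, those called and the 4 with the largest fold change per comparison are named, together with, for each member, the gene with the highest Pearson correlation over the 8 libraries other than Puberty 2. Alternatives covered scaling, filter, pseudocount, variance model, the adjustment set, the fold minimum, XR transcripts, replicate number as a block and leaving out each library, and the scaling check of stage separation was chosen after seeing the data. Sequences were not used here. Python 3.11.15 with pandas 2.3.3, numpy 2.4.6, scipy 1.17.1 and matplotlib 3.10.9 was used.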

Additional observations from a re-analysis of the deposited data

How the results depend on the processing

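The counts of called member genes, member transcripts, transcript values relative to the gene sum and other endocytosis genes stayed at 0 in every alternative run. The smallest adjusted p over all settings was 0.338, 0.516 and 1 for member genes, 0.523, 0.326 and 0.584 for transcripts and 0.239, 0.0718 and 0.887 for transcripts relative to the gene sum (puberty versus prepuberty, postpuberty versus puberty, postpuberty versus prepuberty). Of 52 fold changes, 17 changed sign in at least 1 setting, 10 of them without Puberty 2, and each of the 27 fold changes of member sums moved by over 1.5 times with some library left out. With upper quartile scaling and equal totals, the median log2 fold change of all genes went from -0.14 to -0.29 and -0.26 in puberty versus prepuberty and from 0.19 to 0.30 and 0.33 in postpuberty versus puberty. CLTA then had -0.15 and -0.091 in puberty versus prepuberty and 0.045 and 0.068 in postpuberty versus puberty, and DNM2 had 0.16 and 0.18 in postpuberty versus puberty. In postpuberty versus prepuberty, upper quartile scaling gave -0.013 for AP2B1 and -0.00236 for CLTC. The cause was not tested. Leaving out each library in turn, fold changes of puberty versus prepuberty ran from -0.52 to 0.36 for DNM3, -0.35 to 0.18 for AP2B1, -0.96 to 0.17 for CLTC, -0.061 to 0.39 for CLTA and -1.94 to 0.16 for SNX9. Those of postpuberty versus puberty ran from -0.91 to 0.16 for DNM1, -0.21 to 0.21 for DNM2, -0.11 to 0.75 for DNM3, -0.13 to 0.40 for AP2B1, -0.11 to 1.02 for CLTC, -0.43 to 0.015 for CLTA and -0.050 to 0.16 for ARRB2. Those of postpuberty versus prepuberty ran from -0.065 to 0.52 for DNM3, -0.11 to 0.20 for AP2B1, -0.12 to 0.32 for CLTC, -0.17 to 0.050 for CLTA and -0.11 to 0.35 for ARRB1. Replicate numbers named different animals: deviations of same-numbered libraries correlated at a median of -0.0851 (-0.317 to 0.518), those of others at 0.0285, and 3 of 9 libraries correlated best with their own number. With the replicate number as a block, 0 member genes and transcripts were called. With 3 animals per stage and no read counts, small changes of low transcripts may have been missed.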

Other observations

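The other genes of the pathway were taken from a list of 63 endocytosis genes (coat, adaptor, curvature, uncoating and receptor kinase genes), of which 62 were measured and 61 passed the filter. The limma test called 0 of them in every comparison. At an unadjusted p below 0.05 it held 1 in puberty versus prepuberty, 2 in postpuberty versus puberty and 0 in postpuberty versus prepuberty, where all genes gave 1.82%, 2.14% and 0.815%. Without Puberty 2 it held 4, 5 and 0, where all genes gave 1.66%, 2.11% and 1.87%. The median log2 fold changes of the list were -0.26, 0.32 and 0.04, beside -0.14, 0.19 and 0.05 for all genes, and without Puberty 2 they were 0.02, 0.01 and 0.04, beside 0.02, 0.03 and 0.05. Puberty 2 was the lowest library for 41 of the 62 measured and the highest for 9, beside 52.3% and 20.2% of all genes tested.

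ITSN2, a scaffold that links coat proteins to dynamin, was below every other library at puberty, with 4.78, 0.729 and 4.50 FPKM, against 8.73, 6.09 and 7.36 at prepuberty and 8.40, 6.26 and 7.50 at postpuberty. This pattern was held by 2 of the 61 genes, ITSN2 and SYNJ1, and by 0.948% of all genes. Without Puberty 2 it was held by 6 of the 61, with BIN1, EPN1, FCHO1 and HIP1R in addition, and by 1.7% of all genes, while both puberty libraries were above the others for 1 of the 61, EPN3, and for 2.17% of all genes. ITSN2 is named for the size of its fold changes, and the others, after their values were seen, for these patterns. Its log2 fold change of puberty versus prepuberty was -1.13 (SE 0.45), with a limma p of 0.0320 and an adjusted p of 0.838, and without Puberty 2 it was -0.56, with a limma p of 0.0221 and an adjusted p of 1. Some of the other large values shrank without Puberty 2 and some did not. SNX9, which binds curved membrane and dynamin, had a log2 fold change of puberty versus prepuberty of -1.22 with it and 0.16 without it, PACSIN2 of -1.22 and -0.20, and HIP1, which links clathrin to actin, of -1.16 and -0.02. In postpuberty versus puberty MDM2, a ubiquitin ligase that acts on beta-arrestin, had 1.12 with it and 0.27 without it. EPN3, an epsin and named after its values were seen, had 0.93 with Puberty 2 and 1.14 without it in puberty versus prepuberty. In postpuberty versus prepuberty the widest values were those of TNK2 (-0.84), GRK4 (-0.53), SGIP1 (0.50) and NUMB (-0.30), each with an adjusted p of 1. With 1 library left out, these ran from -1.42 to -0.51 for TNK2 and from -0.90 to -0.21 for GRK4. For SGIP1 the range was 0.20 to 0.69, and for NUMB it was -0.45 to -0.21. CLTB, the other clathrin light chain, had between 85.9 and 131 FPKM in 8 libraries and 287 in Puberty 2.

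The genes most like each member in log2(FPKM + 1) over the 8 libraries other than Puberty 2 were DNM1L for CLTC (Pearson r = 0.997), GOT1 for AP2B1 (0.996), SLC6A7 for DNM3 (0.987), CSTPP1 for DNM1 (0.967), IQSEC1 for DNM2 (0.965), GALNS for ARRB2 (0.954), CCDC77 for CLTA (0.954), DOCK9 for ARRB1 (0.952) and SLA for AP2M1 (0.950). The libraries share tissue composition and depth, the genes were picked as the highest of all, and SLA was at no more than 0.745 FPKM, with a Spearman rho of 0.491. With Puberty 2 included, r was -0.30 for IQSEC1, 0.206 for CCDC77, 0.466 for GALNS, 0.805 for GOT1, 0.826 for SLA and 0.854 for CSTPP1, and between 0.980 and 0.989 for DOCK9, DNM1L and SLC6A7.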
